A study of Mus musculus with 6 samples.

Results

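The heat shock proteins and their DnaJ co-chaperones (J proteins) were examined in the soleus, a slow-twitch-rich calf muscle, of *Mustn1* KO-first HET mice and WT littermates. All genes of the normalized table whose symbol starts with Hspa, Hspb, Hspd, Hspe or Hsph, or with Dnaja, Dnajb or Dnajc, followed by a number, were taken, a rule that uses no measured value. This gave 63 of the 51912 genes in the count table, under 62 symbols, because another gene, ENSMUSG00000051396, also carries the symbol *Hspa14* and is called *Gm45902* here after the GENCODE annotation. The libraries, 1 per mouse, came from 3 HET and 3 WT mice of the C57BL6/N strain at 8 weeks of age. HET mice carry 1 KO-first allele of *Mustn1*, a gene for a microprotein of muscle, in which exon 1 is spliced into a lacZ trap with a neomycin resistance gene in every cell of the body, and the trap may let some normal transcript through. WT mice carry no such allele, and neither genotype received a treatment. In whole muscle, fewer cells of a type and less RNA per cell cannot be told apart.

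Heat shock proteins are molecular chaperones, which bind unfolded stretches of other proteins and help them to fold, to move between compartments or to be degraded. HSP70 proteins (Hspa) do this in cycles of ATP hydrolysis, which J proteins (Dnaja, Dnajb and Dnajc) start and nucleotide exchange factors, among them the HSP110 protein *Hsph1*, reset. HSP60 (*Hspd1*) and its lid HSP10 (*Hspe1*) form the folding chamber of mitochondria, and the small heat shock proteins (Hspb) hold unfolding proteins without using ATP. Small heat shock proteins are abundant in striated muscle, where several bind to the contractile apparatus, and mutations in members such as *Dnajb6* and *Hspb8* cause muscle disease. Heat and other stress to proteins induce part of the family through the factor *Hsf1*, which binds repeats of GAA and TTC (heat shock elements), and stress in the endoplasmic reticulum (ER) induces others through the ER stress element.

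The sequences before the start of a gene show how these elements lie in 4 members on which the description below turns. Sequences are from RefSeq (GRCm38.p6), are written 5′ to 3′ along the gene's strand, and positions are counted back from the annotated start. *Hspa1a* and *Hspa1b*, the inducible HSP70 genes, are neighbours on the minus strand of chromosome 17, and their 250 bases at chr17:34972157-34972406 and chr17:34959239-34959488 are shown with an element of 2 units in capitals, at −104 to −97 in both.
Hspa1a: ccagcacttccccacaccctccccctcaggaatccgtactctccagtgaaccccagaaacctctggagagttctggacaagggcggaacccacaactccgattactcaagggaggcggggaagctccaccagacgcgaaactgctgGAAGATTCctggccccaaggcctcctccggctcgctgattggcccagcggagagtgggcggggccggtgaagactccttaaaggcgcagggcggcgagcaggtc
Hspa1b: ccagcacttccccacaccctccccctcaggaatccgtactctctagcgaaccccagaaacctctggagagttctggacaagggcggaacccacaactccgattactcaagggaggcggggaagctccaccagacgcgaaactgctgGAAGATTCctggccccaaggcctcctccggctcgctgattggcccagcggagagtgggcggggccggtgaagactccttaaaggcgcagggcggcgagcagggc
The pair differed at 3 of the 250 bases, C44T, T47C and T249G (*Hspa1a*'s base first, counted from 1 at the 5′ end), an identity of 98.8%. For *Hspe1*, 30 bases at chr1:55088053-55088082 on the plus strand are shown, in which the capitals mark 2 overlapping elements of 3 units each, from −89 to −72. They also lie in an untranslated exon of an annotated *Hspd1* transcript on the other strand, since the 2 chaperonin genes start head to head. For *Hspa5*, the 30 bases at chr2:34772020-34772049 on the plus strand hold an ER stress element, in capitals, from −65 to −47, within a longer annotated *Hspa5* transcript.
Hspe1: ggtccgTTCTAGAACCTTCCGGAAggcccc
Hspa5: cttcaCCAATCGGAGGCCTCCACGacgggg

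Of the 62 symbols, 52 had a promoter in the RefSeq table. An element of 2 units (GAANNTTC or TTCNNGAA, which together cover both strands) lay in the 250 bases before the start of 14 of them (26.9%), against 14.5% of 27025 genes. Elements of 3 units (GAANNTTCNNGAA or TTCNNGAANNTTC, each of which also counts as an element of 2) lay before *Dnajb6*, *Hspd1* and *Hspe1*, which is 5.77% of the members against 0.514% of all genes. *Hspd1* and *Hspe1* start head to head, so their matches may not be separate. The ER stress element, searched as CCAAT and CCACG with 9 bases between them on either strand, lay before *Dnajc3* and *Hspa5*, which is 3.85% against 0.130%. These matches are a description of the letters and not of binding.

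The libraries held between 26790075 and 50368796 reads on genes. The sample labels give male mice, but *Xist* had 3858 to 9154 reads per library, and 4 Y chromosome genes together had at most 12. Against the labels, every library of HET and WT mice alike thus had the reads of a female mouse. *Mustn1*, the targeted gene, had 12.6, 16.8 and 13.1 normalized reads (CPM, reads scaled to a common library size with TMM factors) in HET mice 1 to 3 and 23.1, 29.0 and 30.5 in WT mice 1 to 3. It was lower in HET, with a log2 fold change of −0.96 ± 0.15 (SE, edgeR's quasi-likelihood test, adjusted p = 0.0452). Macrophage, fibro-adipogenic progenitor (FAP) and tenocyte markers had log2 fold changes above 0 for 15 of 15, 14 of 14 and 10 of 10 genes, of which 7, 1 and 0 passed the test by edgeR, 10, 7 and 2 by DESeq2 and 2, 0 and 0 by limma-voom. With each mouse left out, 0 to 9, 0 to 3 and 0 passed by edgeR, with 0 in all 3 lists without HET mouse 1, HET mouse 3, WT mouse 1 or WT mouse 2. Summed over each list, macrophage markers were at 102 to 142 CPM in HET and 56.6 to 62.5 in WT mice, FAP markers at 2861 to 4056 and 1365 to 2192, and tenocyte markers at 425 to 723 and 140 to 335. The part of these cells in the results for the chaperones was not tested. Endothelial, vascular smooth muscle, adipocyte and blood cell markers had median log2 fold changes of −0.07, 0.04, 0.95 and −0.24, with 0 past the test by edgeR, DESeq2 or limma-voom and 0 at an unadjusted p under 0.05 by edgeR. Single mice moved these medians. Without WT mouse 3 the adipocyte median was 2.30, with 1 of 8 genes past the test, and with each other mouse left out it was 0.57 to 1.24. With each mouse left out the endothelial, smooth muscle and blood cell medians ran from −0.11 to 0.02, −0.08 to 0.20 and −0.59 to −0.03. The slow fibre markers were at 40242 to 43147 CPM in HET and 41050 to 45872 in WT mice in sum. The fast fibre markers were at 49496 to 59038 CPM in HET and 55934 to 58254 in WT mice.

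The first comparison asks whether HET and WT muscle differed in the expression of chaperone genes. No member passed the test: 0 of the 61 members tested were higher and 0 were lower in HET at an adjusted p under 0.05, where 0.143% of the 14696 genes tested were higher (21 genes) and 0.00680% lower (1 gene). The smallest adjusted p of a member by edgeR was 0.460, for *Hspe1*. Without the filter on low counts it was 0.0766, for *Hspa5*, and under the other alternatives the smallest ran from 0.339 to 0.942. At an unadjusted p under 0.05 there was also 1 member, *Hspe1*, against 7.76% of all genes tested. DESeq2's Wald test and limma-voom likewise called 0 members, so that 0 members passed in any class below by any of these tools. Each had 3 members at an unadjusted p under 0.05, against 1026 and 1171 of the 14696 genes tested.

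The sizes of the differences were small. The log2 fold changes of the 61 members ran from −0.38 for *Dnajc19* to 0.43 for *Hspa1b*, with 25 above 0, 36 below 0 and a median of −0.03, against −0.02 over all genes tested. With libraries scaled by their upper quartile in place of TMM, 30 were above and 31 below 0, and the medians of the HSP70 and HSP110 genes and of the small heat shock proteins turned from −0.02 and −0.01 to 0.01. With an offset that corrects each library for gene length, 6 of the 7 small heat shock proteins were above 0. With TMM scaling and no offset, the log2 fold changes lay within 0.2 of 0 for 54 of 61 members (88.5%), against 69.3% of all genes tested. The 95% intervals lay within 2-fold in either direction for 61 of 61 members and within 1.5-fold for 54, so that larger differences lay outside the intervals. The interval left out 0 for 1 member, *Hspe1*. Members also varied less between mice of the same genotype, with a median SD of log2 CPM of 0.112, against 0.183 over all genes tested. Between genes this spread, and with it the scatter of log2 fold changes about 0, depends on the level. The median level of the tested members was 11.1 FPKM (normalized reads per kilobase of exon) against 2.73 over all genes tested. The part of the level in the 2 comparisons with all genes was not tested.

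**Figure D1:**
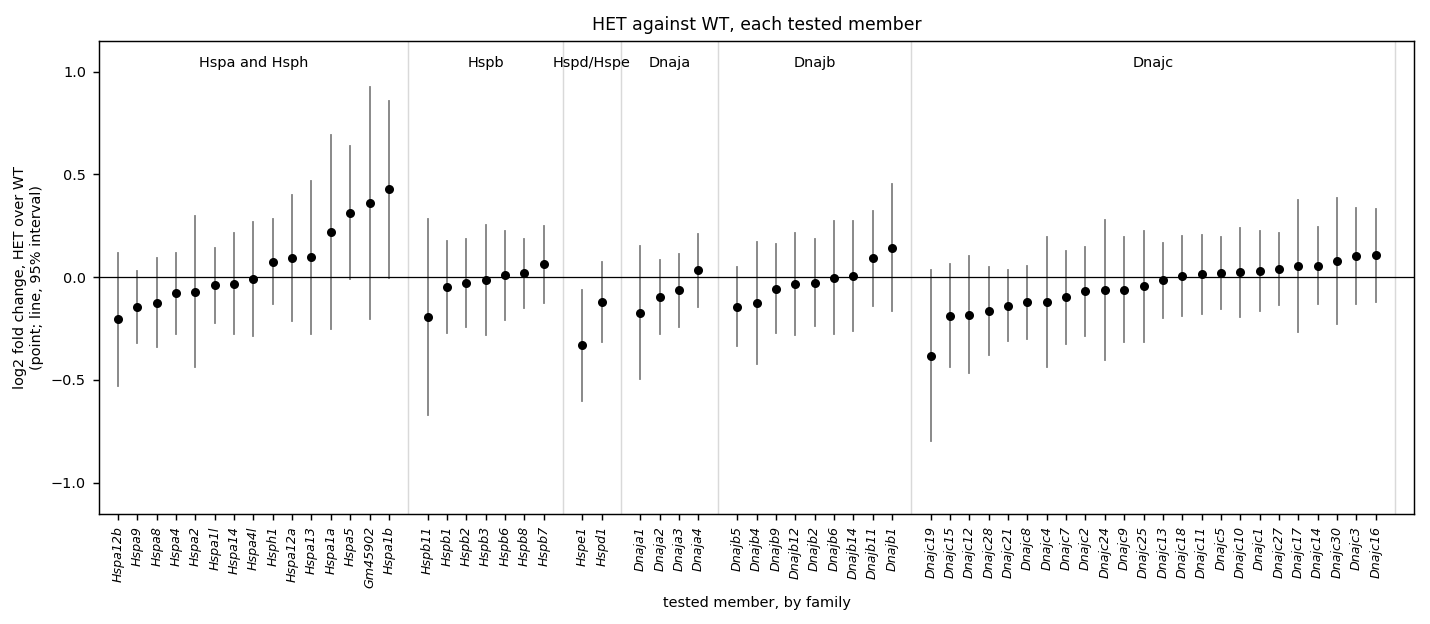
Log2 fold change of HET over WT (points) with its 95% interval (lines) for each of the 61 tested members, grouped by gene family and ordered within it. The points lie between −0.38 and 0.43, and only the interval of *Hspe1* leaves out 0.

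In 6 of 61 members the genotypes did not overlap, against 13.6% of all genes tested. In all 6, the HET mice lay below the WT mice (6.02% of all genes tested), and in 0 of the 61 tested members they lay above (7.55%). These were *Hspe1*, *Dnajc19* and *Hspa9* of the mitochondria, the cytosolic J protein *Dnaja2*, *Dnajc21*, a factor of ribosome assembly, and the splicing-associated *Dnajc8*. For each of the 6, the exact two-sided permutation test gave p = 0.1, the smallest it allows with 3 mice against 3. Groups that do not overlap always give this value, so it adds nothing to the lack of overlap.

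Levels of the members, in FPKM so that genes of different length can be set side by side, differed widely between members. *Hspb6* (HSP20), a small heat shock protein of muscle, had the highest mean level at 1017 ± 73.2 FPKM (SD over 6 mice). *Hspb7*, a small heat shock protein of heart and skeletal muscle, followed at 927 ± 45.0 FPKM, and the values of the pair overlapped between mice. Together *Hspb6* and *Hspb7* held 57.8% of the summed level of 3362 FPKM over the members, and all Hspb genes held 67.2%. *Hspa9* (mortalin), the HSP70 of mitochondria, was at 182 ± 10.7 FPKM, *Hspb8*, which works with *Bag3* in the removal of damaged filaments, at 145 ± 2.23 FPKM, and the J protein *Dnaja4* at 103 ± 3.45 FPKM. From *Hspb7* to *Hspa9*, *Hspb8*, *Dnaja4* and *Hspb2* no mouse of a gene overlapped with any mouse of the next, so that this order held in all 6 mice. *Hspb2*, at 90.4 ± 6.61 FPKM, overlapped with *Hspa5* (BiP), the HSP70 of the ER, at 82.7 ± 15.7 FPKM, and *Hspa5* with *Dnaja2* at 65.2 ± 3.50 FPKM. *Dnajc15*, a J protein of the mitochondrial import motor, at 52.9 ± 5.99 FPKM, and *Hspa4*, an HSP110-like exchange factor, at 45.4 ± 2.95 FPKM, closed the 10 highest, which held 80.6% of the summed level. The level of *Dnajc15* rests on an exon length of 648 bases in the count table, while its GENCODE transcripts hold 6551 distinct runs of 50 bases. In all, 31 tested members were above 10 FPKM and 1, *Gm45902*, was below 1 FPKM. From *Hspa4* down through *Hspb1* at 44.1 ± 3.44, *Hspd1* at 43.4 ± 3.14, *Dnajb5* at 40.2 ± 2.98 and *Hspa8* at 37.9 ± 3.39 FPKM, each gene overlapped with the next, so that their order differed between mice or lay within their spread.

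**Figure D2:**
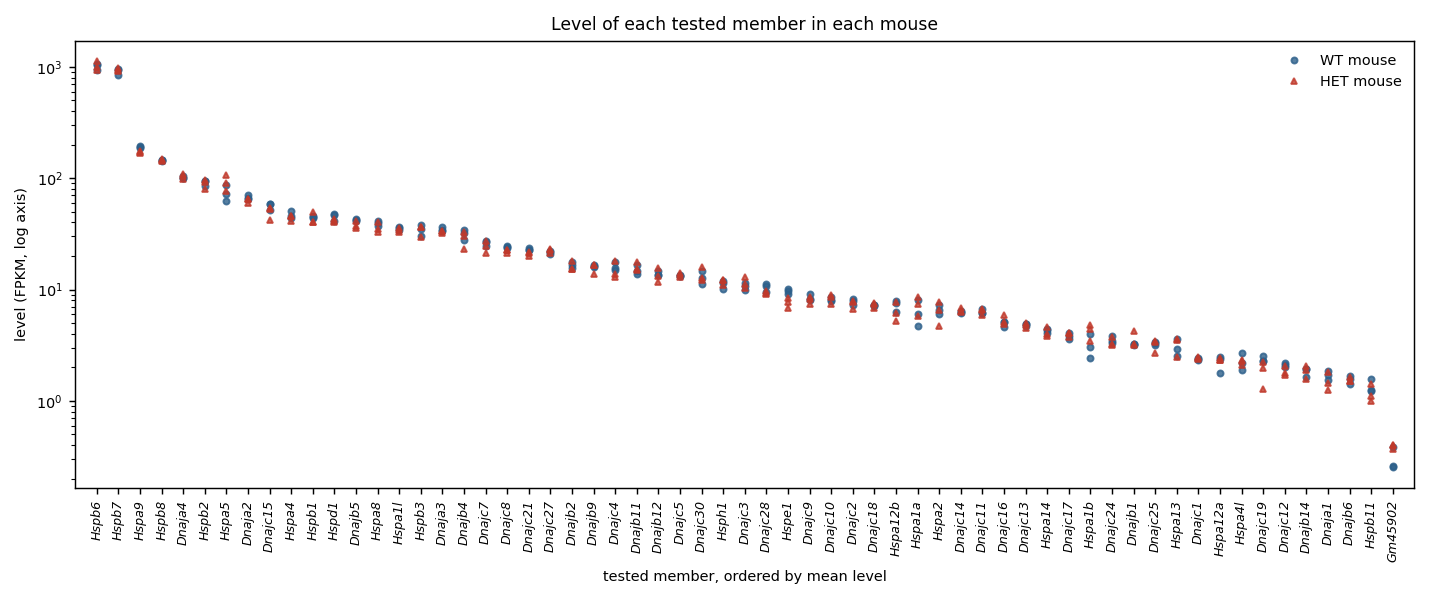
Level of each of the 61 tested members in each mouse, in FPKM on a log axis, ordered by the mean over 6 mice (circles, WT mice; triangles, HET mice). *Hspb6* and *Hspb7*, at means of 1017 and 927 FPKM, stand apart from the rest, and HET and WT mice lie close together for most members.

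The small heat shock proteins, the most abundant class, lay close to 0, with 3 of 7 log2 fold changes above 0, 4 below, 0 past the test and a median of −0.01. *Hspb6* was at 2289, 2591 and 2154 CPM in HET mice 1 to 3 and 2168, 2441 and 2385 CPM in WT mice 1 to 3. *Hspb7* was at 2613, 2562 and 2690 CPM in HET and 2330, 2631 and 2570 CPM in WT mice. The genotypes overlapped for either gene, with log2 fold changes of 0.01 ± 0.10 and 0.06 ± 0.09 (SE). *Hspb8* varied little between mice, at 284, 279 and 288 CPM in HET and 282, 283 and 276 CPM in WT mice, and its 95% interval ran from 0.901-fold to 1.14-fold. *Hspb1* (HSP25 in mouse), a small heat shock protein that binds actin, was at 41.7, 50.8 and 41.6 CPM in HET and 47.6, 45.8 and 45.1 CPM in WT mice, so that HET mice lay on both sides of the WT mice. The log2 fold change of *Hspb1* was −0.05 ± 0.10 and that of *Hspb2* was −0.03 ± 0.10, and both turned to above 0, at 0.03 and 0.07, when each library's trend on gene length was taken out. *Hspb11*, which carries the family name but works in transport along cilia, was the lowest of the class in level, at 1.26 FPKM, and in fold change, at −0.19 ± 0.22. The alpha-crystallin *Cryab*, a small heat shock protein under another symbol, was at 1672 to 2035 CPM in HET and 1690 to 2154 CPM in WT mice (log2 fold change −0.01 ± 0.11), and *Cryaa* had 0 reads.

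The HSP70 and HSP110 genes, counted without *Gm45902*, lay on both sides of 0, with 6 of 14 above and 8 below. Their median log2 fold change was −0.02, with 0 past the test. Among the tested members the inducible pair had the widest spread between mice of the same genotype. The SD of log2 CPM was 0.348 for *Hspa1a* and 0.309 for *Hspa1b*. *Hspa1a* was at 17.04, 25.5 and 21.9 CPM in HET mice 1 to 3 and 17.8, 23.9 and 13.8 CPM in WT mice 1 to 3. *Hspa1b* was at 9.64, 13.5 and 12.5 CPM in HET and 8.50, 11.2 and 6.83 CPM in WT mice. In both genes mouse 2 was the highest of its genotype, WT mouse 3 was the lowest of all, and the genotypes overlapped. The log2 fold change was 0.22 ± 0.21 (SE) for *Hspa1a* and 0.43 ± 0.19 for *Hspa1b*, the highest of any tested member (edgeR, adjusted p = 0.651). Without WT mouse 3 these values were 0.04 and 0.26, and without WT mouse 2 they were 0.44 and 0.63.

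The constitutive cytosolic HSP70, *Hspa8*, was at 152, 175 and 141 CPM in HET and 170, 179 and 161 CPM in WT mice, which overlapped (log2 fold change −0.12 ± 0.10). *Hsph1* (HSP105), the exchange factor that is induced with the pair, was at 80.0, 87.6 and 88.2 CPM in HET and 82.5, 87.2 and 73.3 CPM in WT mice (log2 fold change 0.08 ± 0.09). Its relative *Hspa4* was at 228 to 253 CPM in HET and 244 to 278 CPM in WT mice (−0.08 ± 0.09). *Hspa12b*, a distant relative that is strongest in endothelium, had the lowest fold change of the class at −0.20 ± 0.15, with 19.3, 28.2 and 22.7 CPM in HET and 23.4, 27.9 and 29.3 CPM in WT mice. *Gm45902*, which shares its locus with *Hspa14*, had few reads, at 1.60 to 1.75 CPM in HET and 1.10 to 1.68 CPM in WT mice, and a log2 fold change of 0.36 ± 0.25.

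A list of 10 members was chosen as induced by heat in the cytosol and mitochondria, and it also holds the constitutive *Hspa8*. These 10 (*Hspa1a*, *Hspa1b*, *Hspa4l*, *Hspa8*, *Hsph1*, *Hspb1*, *Hspd1*, *Hspe1*, *Dnaja1* and *Dnajb1*) did not move in 1 direction. Their log2 fold changes were above 0 for 4 and below 0 for 6, with a median of −0.03, and their summed level was 474 to 521 CPM in HET and 468 to 539 CPM in WT mice. *Dnajb1* (HSP40), the J protein that partners the inducible HSP70, was at 10.3, 10.4 and 13.7 CPM in HET and 10.3, 10.5 and 10.5 CPM in WT mice. Only HET mouse 3 stood above the rest, and the log2 fold change of 0.14 ± 0.14 was −0.00 without it. Immediate early genes, a list that responds to stimulation and to tissue handling, had 9 of 14 log2 fold changes above 0, with a median of 0.25. By edgeR and DESeq2 0 of them passed the test and 4 had an unadjusted p under 0.05, against 7.76% of all genes tested by edgeR. By limma-voom 0 passed and 3 had such a p. The count at an unadjusted p under 0.05 by edgeR was 1 without HET mouse 2 or HET mouse 3 and 2 without WT mouse 2 or WT mouse 3. It was 3 without WT mouse 1 and 5 without HET mouse 1. The median was 0.10 and 0.12 without HET mouse 2 and HET mouse 3, and 0.37 and 0.34 without HET mouse 1 and WT mouse 2. Among them *Fos* was at 10.8, 20.9 and 18.3 CPM in HET and 14.8, 13.3 and 9.58 CPM in WT mice, and *Atf3* at 17.4, 20.1 and 41.4 CPM in HET and 20.6, 19.1 and 12.5 CPM in WT mice. The genotypes overlapped in both. The order of the mice differed between genes of the list. *Egr1* was highest in mouse 2 of each genotype, at 17.4 CPM in HET and 25.5 CPM in WT, and WT mouse 3 was the lowest WT mouse for *Fos* and *Atf3* but the highest for Klf4, named after its values were seen, at 52.7 CPM against 27.7 and 30.9 CPM in WT mice 1 and 2. The part of tissue handling in the spread of *Hspa1a* and *Hspa1b* was not tested.

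**Figure D3:**
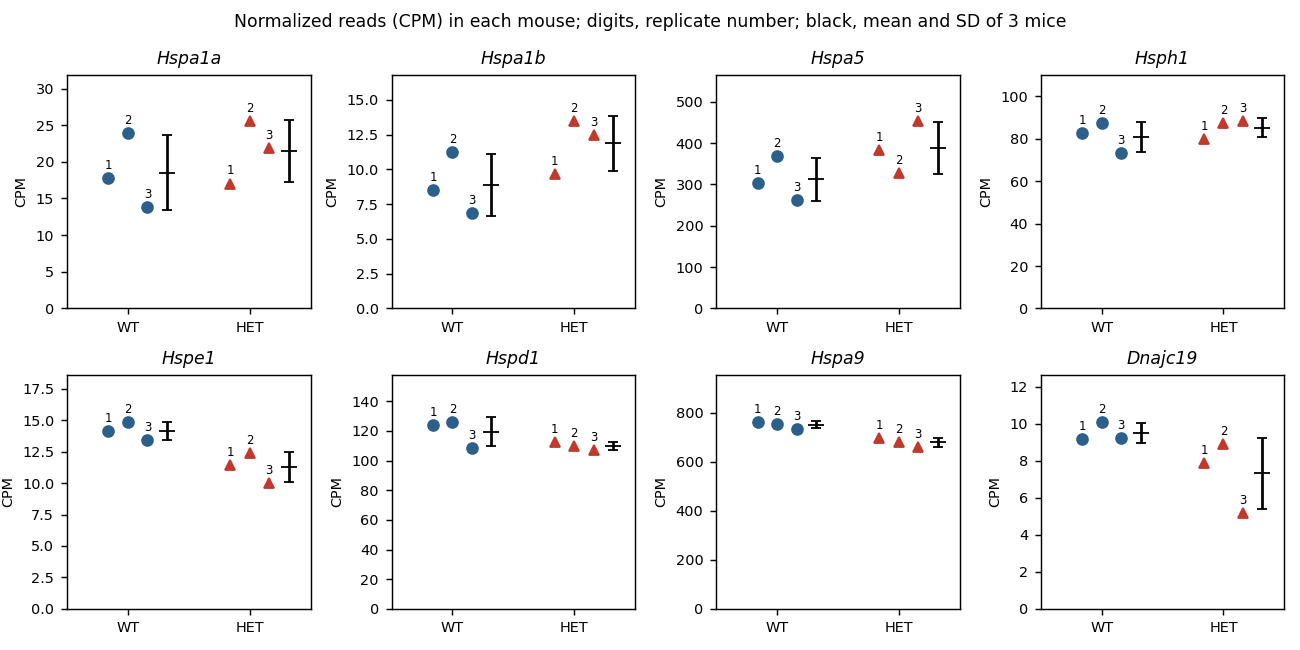
Normalized reads (CPM) of 8 members in each mouse (circles, WT; triangles, HET; the digit is the mouse number), with the mean and SD of 3 mice in black. *Hspa1a*, *Hspa1b*, *Hspa5* and *Hsph1* in the upper row and *Hspd1* overlap between the genotypes, while the HET mice all lie below the WT mice for *Hspe1*, *Hspa9* and *Dnajc19*.

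ER chaperones and J proteins had log2 fold changes above 0 for 10 of 13 members, against 6702 of the 14696 genes tested. They were below 0 for 3, with a median of 0.03 and 0 past the test. The count above 0 was 10 under RLE and upper quartile scaling too, and 8 to 12 with each mouse left out, with medians of 0.01 to 0.10. *Hspa5*, which carries the ER stress element shown above, was the furthest from 0. It was at 383, 328 and 453 CPM in HET mice 1 to 3 and 304, 369 and 263 CPM in WT mice 1 to 3. HET mouse 3 and HET mouse 1 were the highest, but WT mouse 2 was above HET mouse 2, so the genotypes overlapped. The log2 fold change was 0.31 ± 0.15 (SE), with a 95% interval from 0.993-fold to 1.56-fold (edgeR, adjusted p = 0.663, and 0.0766 without the filter on low counts). Without HET mouse 3 the log2 fold change was 0.19. The other 12 were closer to 0, and the next highest was *Dnajc16*, an ER J protein, at 0.11 ± 0.10. *Dnajc3* (p58IPK), the other member with an ER stress element, was at 58.1, 53.4 and 67.1 CPM in HET and 55.4, 59.8 and 51.2 CPM in WT mice (0.10 ± 0.11), and HET mouse 3 was again the highest. *Dnajb9* (ERdj4), a J protein that ER stress induces strongly, was at 42.5, 35.4 and 42.0 CPM in HET and 41.8, 42.5 and 40.3 CPM in WT mice (−0.06 ± 0.10).

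Other genes of the unfolded protein response of the ER had log2 fold changes above 0 for 13 of 17, with a median of 0.17. By edgeR, DESeq2 and limma-voom 0 of the 17 passed the test. At an unadjusted p under 0.05 edgeR had 7.76% of all genes tested, and each tool had 4 of the 17, all higher in HET by edgeR. This count by edgeR was 0 without HET mouse 3 or WT mouse 3, 1 without WT mouse 1 and 2 without HET mouse 1, and with each mouse left out the median ran from 0.10, without WT mouse 3, to 0.25, without WT mouse 2. These 4, named after their values were seen, were *Xbp1*, a transcription factor of this response, at 0.23 ± 0.09, the disulfide isomerase *Pdia6* at 0.25 ± 0.10, and the ER proteins *Creld2* at 0.30 ± 0.12 and *Manf* at 0.27 ± 0.12 (log2 fold change ± SE). Other transcription factors of this response were below 0, with *Atf4*, the lowest of the list, at −0.13 ± 0.09 and *Atf6* at −0.01 ± 0.10. *Hsp90b1* (GRP94), the HSP90 of the ER, was at 206, 186 and 248 CPM in HET and 189, 235 and 166 CPM in WT mice (0.12 ± 0.14). As in *Hspa5*, HET mouse 3 was the highest and WT mouse 3 the lowest. The macrophage, FAP and tenocyte sums given above were higher in every HET mouse than in any WT mouse, and their part in the ER values was not tested.

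Mitochondrial chaperones and J proteins went the other way in number. Their log2 fold changes were below 0 for 8 of 10 members, against 7994 of the 14696 genes tested. They were above 0 for 2, with a median of −0.13 and 0 past the test. The count below 0 was 8 under RLE and upper quartile scaling too, and 8 to 10 with each mouse left out, with medians of −0.15 to −0.09. *Hspe1* (HSP10) was at 11.4, 12.4 and 10 CPM in HET mice 1 to 3 and 14.2, 14.9 and 13.5 CPM in WT mice 1 to 3. No HET mouse reached the level of a WT mouse, and the log2 fold change was −0.33 ± 0.12 (SE), or 0.794-fold with a 95% interval from 0.659 to 0.958 (edgeR, adjusted p = 0.460). Its partner in the chaperonin, *Hspd1* (HSP60), which starts head to head with it, was at 113, 110 and 107 CPM in HET and 124, 126 and 108 CPM in WT mice. WT mouse 3 lay among the HET mice, and the log2 fold change of *Hspd1* was −0.12 ± 0.09. *Hspa9* was at 697, 682 and 661 CPM in HET and 765, 755 and 736 CPM in WT mice, without overlap, with a log2 fold change of −0.14 ± 0.08 (adjusted p = 0.768).

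*Dnajc19*, a J protein of the mitochondrial import motor that acts on *Hspa9*, was at 7.88, 8.91 and 5.20 CPM in HET and 9.16, 10.1 and 9.24 CPM in WT mice. HET mouse 3 was well below the rest, and the log2 fold change of −0.38 ± 0.19 (edgeR, adjusted p = 0.699) was −0.18 without it. *Dnajc15*, its paralogue in the import motor, was at 34.9, 34.0 and 27.4 CPM in HET and 38.1, 37.7 and 33.8 CPM in WT mice, which overlapped (−0.19 ± 0.11), and HET mouse 3 was again the lowest. *Dnajc28* was at 32.5 to 34.5 CPM in HET and 33.6 to 39.8 CPM in WT mice (−0.16 ± 0.10). The highest of the class was *Dnajc30*, a mitochondrial J protein, at 0.08 ± 0.14. In sum, the 10 genes were at 1080 to 1129 CPM in HET and 1181 to 1229 CPM in WT mice, a sum in which *Hspa9* weighs most. Other genes of mitochondrial protein quality control were below 0 for 8 of 11, with a median of −0.07, and by edgeR, DESeq2 and limma-voom 0 passed the test and 0 had an unadjusted p under 0.05. Fast fibre markers were below 0 for 11 of 12 genes (median −0.17), at 49496 to 59038 CPM in HET and 55934 to 58254 CPM in WT mice in sum, and slow fibre markers for 8 of 9 (median −0.08). The part of muscle fibre RNA in the mitochondrial values was not tested.

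Among the J proteins, 1 of 4 Dnaja, 3 of 9 Dnajb and 11 of 24 Dnajc genes tested had log2 fold changes above 0, with medians of −0.08, −0.03 and −0.03. Without HET mouse 2 the Dnajb and Dnajc medians were 0.02 and 0.01. *Dnaja1* and *Dnaja2* are the general cytosolic partners of *Hspa8*. *Dnaja1* was at 12.4, 10.9 and 15.6 CPM in HET and 15.9, 14.9 and 13.3 CPM in WT mice (−0.17 ± 0.15), which overlapped. *Dnaja2*, with more reads, was at 193, 178 and 192 CPM in HET and 211, 194 and 197 CPM in WT mice, without overlap but with only a small gap between HET mouse 1 and WT mouse 2 (−0.10 ± 0.08). *Dnaja4*, the highest J protein in level, was at 356 to 389 CPM in HET and 357 to 372 CPM in WT mice (0.03 ± 0.08).

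*Dnajb5* was at 212, 221 and 246 CPM in HET and 252, 243 and 257 CPM in WT mice, and HET mouse 3 lay among the WT mice (−0.14 ± 0.09, adjusted p = 0.807 by edgeR). *Dnajb4* ranged from 202 to 287 CPM in HET and from 242 to 300 CPM in WT mice (−0.13 ± 0.13). *Dnajb6*, which protects muscle from protein aggregates, was at 9.16, 9.91 and 9.21 CPM in HET and 8.66, 9.43 and 10.2 CPM in WT mice. On the log2 scale the difference was −0.00 ± 0.12, with a 95% interval from 0.825-fold to 1.21-fold. Of the Dnajc genes outside the mitochondria, *Dnajc21* was at 101, 96.1 and 103 CPM in HET and 109, 108 and 113 CPM in WT mice (−0.14 ± 0.08), and *Dnajc8* at 58.3, 54.5 and 58.0 CPM in HET and 60.9, 61.6 and 63.4 CPM in WT mice (−0.12 ± 0.08). Both were without overlap, and their adjusted p-values by edgeR were 0.791 and 0.830. *Dnajc12*, at 7.71 to 9.19 CPM in HET and 8.97 to 9.70 CPM in WT mice, had a log2 fold change of −0.18 ± 0.13.

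*Dnajb3* and *Dnajc6* had too few reads to be tested. *Dnajb3*, a J protein gene known from testis, had 10, 6 and 9 reads in HET mice 1 to 3 and 4, 1 and 1 reads in WT mice 1 to 3. Every HET mouse lay above every WT mouse for *Dnajb3*, at 0.205 to 0.267 CPM against 0.0203 to 0.134 CPM. *Dnajc6* (auxilin), which uncoats clathrin vesicles, had 2 to 14 reads in HET and 3 to 8 reads in WT mice. Without the filter on low counts *Dnajb3* and *Dnajc6* were tested as well and 0 members passed the test, though *Dnajb3* had an unadjusted p under 0.05 by edgeR. The remaining tested members, not named singly, had log2 fold changes within the range given for their class.

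How many reads of a member could be counted differed between members. The authors' count left out reads that align to several places or to overlapping genes, so each run of 50 bases (the read length) along a member's GENCODE transcripts was looked up in all other genes. The median share of runs found elsewhere or in a gene overlapping on the same strand was 0.211%, but 9 members were above 10%. *Hspa1b* had 62.3% and *Hspa1a* 60.3%, *Hspb1* 50.1%, *Hspd1* 39.7% and *Hspa8* 39.4%, followed by *Hspe1* with 18.4%, *Dnajb6* with 17.7%, *Dnajc17* with 13.9% and *Dnaja1* with 11.9%. The levels of these 9 genes may be understated against the other members, while a comparison of HET with WT uses the same part of the gene in every mouse. For *Hspb1*, *Hspd1* and *Hspa8* the main partner was a pseudogene (*Hsp25-ps1*, *Hspd1-ps3* and *Gm15459*), so processed copies share their exons.

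**Figure D4:**
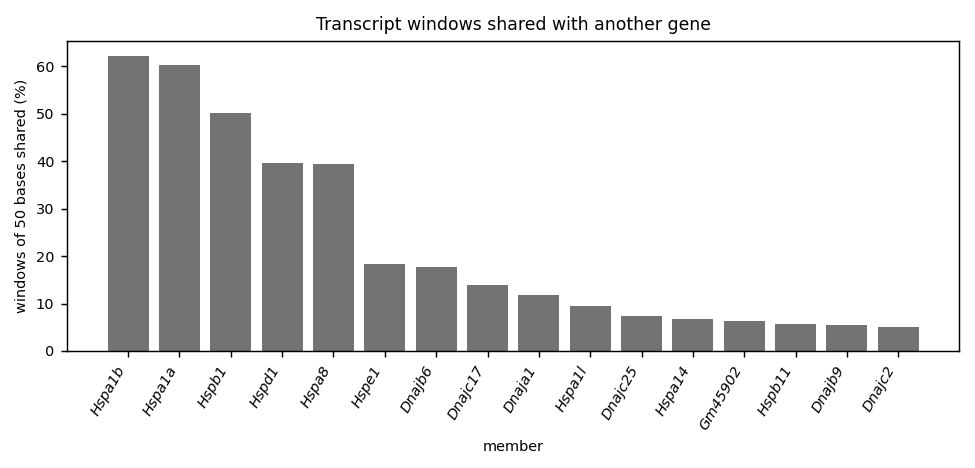
Percent of the 50-base runs along a member's transcripts that also occur in another gene or in a gene overlapping on the same strand, for the 16 members with the highest share. *Hspa1b* and *Hspa1a* lead with 62.3% and 60.3%, and 9 members are above 10%.

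In the inducible HSP70 pair the other gene of the pair is the partner. The coding sequences of *Hspa1a* (1926 bases with the stop codon, chromosome 17, 34970000 to 34971925) and *Hspa1b* (1929 bases, 34957079 to 34959007) differed at 8 of 1926 aligned bases and by a gap of 3 bases, an identity of 99.6%, and the longest stretch without a difference had 638 bases. The 60 bases from 1357 to 1416 of the coding sequence (counted from the start codon) show what a read had to cover to be assigned, with the 2 differences A1380G and A1416G (*Hspa1a*'s base first) in capitals.
Hspa1a: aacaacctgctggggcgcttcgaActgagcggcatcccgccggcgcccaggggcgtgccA
Hspa1b: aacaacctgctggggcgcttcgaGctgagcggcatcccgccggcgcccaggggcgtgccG
Of the runs of 50 bases that lie wholly in the coding sequence, 17.7% of *Hspa1a* and 17.8% of *Hspa1b* were absent from the coding sequence of the other gene. Over the whole transcript, 63.3% and 57.2% of the runs absent from the other gene start in the untranslated 3′ region, which differs between the pair. These are shares of sequence, and where the counted reads lay along the pair was not analysed here.

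The genes for partner proteins of the members did not pass the test either. None of the genes for HSP90 and its partners (0 of 14), the nucleotide exchange factors of HSP70 (0 of 10), the heat shock factors (0 of 4) or the TRiC chaperonin (0 of 8) passed the test, and 0 had an unadjusted p under 0.05, by edgeR, DESeq2 or limma-voom. Their median log2 fold changes were −0.06, −0.01, −0.05 and −0.07, against −0.03 for the members, and 12, 5, 3 and 6 genes were below 0. With each mouse left out, the medians ran from −0.09 to −0.01 for HSP90 and its partners, where 7 of 14 were below 0 without HET mouse 3, and from −0.10 to −0.03 for TRiC. Those of the exchange factors and the heat shock factors changed sign, from −0.04 to 0.04 and from −0.11 without WT mouse 2 to 0.01 without WT mouse 1, and that of the exchange factors was 0.02 with upper quartile scaling. *Hsf1* was at 40.7, 51.1 and 43.5 CPM in HET and 43.7, 42.5 and 47.4 CPM in WT mice (0.02 ± 0.11). The inducible HSP90 gene *Hsp90aa1* was at 10.5 to 14.2 CPM in HET and 10.9 to 14.9 CPM in WT mice (−0.06 ± 0.16), and the constitutive *Hsp90ab1* at 1168 to 1331 and 1202 to 1289 CPM (−0.00 ± 0.09). *Bag3*, the exchange factor that joins *Hspb8* to HSP70 in muscle, was at 282, 323 and 289 CPM in HET and 279, 298 and 276 CPM in WT mice (0.07 ± 0.09), with HET mouse 2 the highest and the genotypes overlapping.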

How the data were processed

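Soleus RNA from 3 HET and 3 WT mice, extracted from frozen tissue with an RNA integrity number above 8, was selected for polyA and sequenced in stranded single-end libraries of 50-base reads. Per the paper's methods and the submitters' processing notes, the authors aligned the reads to GRCm38.p6 with STAR 2.7.3a and made the deposited raw counts per gene with featureCounts 2.0.3, keeping strand and dropping multi-mapping reads and those on overlapping genes. The authors also deposited a normalized signal, the count divided by a DESeq2 size factor per library for 16247 genes, which was used here only for symbols. A table of the authors' own comparison holds log2 fold changes and p-values and was not used. Columns left without a sample numbered 0.

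The members were taken by symbol from the normalized table and joined to the counts by Ensembl ID. That rule uses symbols only, but the family it covers and the gene lists were chosen with earlier results of these data known. All 14696 genes that passed filterByExpr in edgeR (minimum count 10) were fitted with TMM scaling and edgeR's robust quasi-likelihood test by genotype alone, two-sided, with Benjamini-Hochberg adjustment over all of them and a threshold of 0.05. Log2 fold changes carry their SE, and 95% intervals use the test's degrees of freedom. CPM are counts over the TMM-scaled library size, with a prior count of 2 where logged, and FPKM are CPM per kilobase of exon in the count table. The libraries held between 26790075 and 50368796 counts on genes. Spread between mice of a genotype exceeded counting noise, since the chi-square per gene ran from 16.5 to 46.8 where counting noise alone gives 1. P-values by edgeR set the difference between genotypes against the spread between mice of a genotype. The fit estimates that spread with information shared across genes. The labels give these 6 mice as separate samples.

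Genes named singly were, by rule, every member past the threshold, the 12 with the smallest p, the 10 with the highest mean FPKM, the ends of each class and a fixed list of well-known members and partners. The paper gives the WT mice as littermates without pairing single mice. The correlations of deviations between mice of the same number were 0.20, −0.01 and −0.03, so the numbers were not taken to pair them. Shared 50-base runs were counted over GENCODE M21 transcripts, and promoters were read from RefSeq (GRCm38.p6). The alternatives were RLE and upper quartile scaling, no filter, at least 10 reads in every library, DESeq2, limma-voom, dispersions without the robust step, a block on the replicate number, a length offset, both together, and leaving out each mouse. The tests were tried on simulated counts with known changes. Versions were R 4.3.3, edgeR 4.0.16, limma 3.58.1, DESeq2 1.42.0, Python 3.11.15, pandas 2.3.3, NumPy 2.4.6, SciPy 1.17.1 and matplotlib 3.10.9. Protein sequences were not used here.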

Additional observations from a re-analysis of the deposited data

How the results depend on the processing

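Under all 16 alternatives 0 members passed the test. Members at an unadjusted p under 0.05 numbered 2 with RLE scaling and with at least 10 reads in every library, 3 with upper quartile scaling, DESeq2, limma-voom, the replicate block and the block with length offset, 5 without the filter, and 1 to 6 with each mouse left out, with 6 without HET mouse 2, 3 without WT mouse 2, and 2 without HET mouse 1 or HET mouse 3. *Hspe1* was not among them without HET mouse 3 or WT mouse 2. Over all 14696 genes tested, 1140 (7.76%) had an unadjusted p under 0.05 in the main edgeR fit. The count was 1131 with RLE scaling, 1142 with upper quartile scaling, 1026 with DESeq2 and 1171 with limma-voom. With each mouse left out, only those of the 14696 genes that were still tested were counted. It then ran from 745 of 14602 genes without HET mouse 3 to 1300 of 14696 without HET mouse 2.

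Calls higher and lower in HET were counted over all genes tested in each fit. They numbered 386 and 18 without the filter, 218 and 8 with DESeq2, 3 and 0 with limma-voom and 6 and 0 with non-robust dispersion. With the replicate block they were 114 and 2, and with the block and length offset 140 and 2. With each mouse left out they ran from 0 to 77 and from 0 to 6, with 0 and 0 without HET mouse 1, HET mouse 3, WT mouse 1 or WT mouse 2 and 77 and 6 without WT mouse 3. The cause was not tested. *Mustn1* missed the threshold at −0.99 with limma-voom and −0.96 with non-robust dispersion, and without HET mouse 1, HET mouse 3, WT mouse 1 or WT mouse 2. With each mouse left out its log2 fold change ran from −1.09 to −0.88.

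Of 44 genes named by the rule, 31 kept their sign under all 16 alternatives and 13 did not. *Dnajb6* turned to 0.0035 with RLE, 0.025 with upper quartile scaling, 0.0050 without the filter, 0.010 with at least 10 reads and 0.0015 with DESeq2, and *Hsp90ab1* to 0.0042, 0.025, 0.0068, 0.011 and 0.0041. With the length offset and with the block and offset, *Hspb1* was at 0.028 and 0.026, *Hspb2* at 0.068 and 0.070 and *Cryab* at 0.023 and 0.029, and *Cryab* was at 0.014 with upper quartile scaling. With each mouse left out, log2 fold changes ran from −0.0046 to 0.22 for *Dnajb1*, −0.23 to 0.022 for *Dnajb4*, −0.060 to 0.058 for *Dnajb6*, −0.10 to 0.037 for *Dnajb9*, −0.041 to 0.19 for *Dnajc30*, −0.13 to 0.0054 for *Hspb1*, −0.082 to 0.051 for *Hspb2*, −0.057 to 0.069 for *Hspb6*, −0.096 to 0.078 for *Cryab*, −0.66 to 0.67 for *Egr1*, −0.068 to 0.085 for *Hsf1*, −0.19 to 0.069 for *Hsp90aa1* and −0.049 to 0.033 for *Hsp90ab1*. The replicate block changed no call of a member or of *Mustn1*.

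With 3 mice per genotype, the intervals of 54 of 61 members allowed differences of up to 1.5-fold and those of the other 7 up to 2-fold, and *Dnajb3* and *Dnajc6* had too few reads for a test.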
